A study of Homo sapiens with 17 samples.

Results

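The 84 genes described here are the nuclear genes for subunits of the 5 complexes of oxidative phosphorylation, measured in HepG2 cells treated with 5-azacytidine. They were chosen by gene symbol (the NDUFA, NDUFB, NDUFC, NDUFS and NDUFV series, SDHA to SDHD, the UQCR series with CYC1, COX subunits 5 to 8, and the ATP5 series), and 65 pseudogenes with matching symbols were left out. Of the 63187 gene IDs in the count table these make 36 genes of complex I, 4 of complex II, 10 of complex III, 15 of complex IV and 19 of complex V. NDUFA4 carries a complex I name and was placed with complex IV, where its protein is now assigned. COX4I1, COX4I2 and NDUFA4L2 fall outside the symbol rule and are given separately.

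HepG2 is a human liver cancer cell line that retains many hepatocyte features, and the labels give it as wild type. 5-azacytidine is a cytidine analogue that enters RNA and DNA and traps DNA methyltransferases. Cells received 0, 2 or 10 µM of it for 4 days with fresh medium every day. RNA-seq was deposited as 3 libraries per dose. ATAC-seq, which reads open chromatin, has 3 libraries without the drug, 3 for the lower and 2 for the higher dose. Every library came from this 1 cell line, so that no result here extends beyond it. The libraries of a dose are described as biological replicates, not expressly as separate cultures, and the p-values measure the spread between these libraries.

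Complex I (NADH dehydrogenase) and complex II (succinate dehydrogenase) pass electrons to coenzyme Q, complex III passes them to cytochrome c, and complex IV (cytochrome c oxidase) passes them to oxygen. Complexes I, III and IV pump protons, and complex V (ATP synthase) uses the returning protons to make ATP. Most subunits are encoded in the nucleus and imported, whereas a few core subunits of complexes I, III, IV and V are encoded in mitochondrial DNA. Hepatocytes are rich in mitochondria, and the nuclear genes are known to share promoter sites for NRF1, for ETS factors such as GABP, and for YY1.

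The promoters of 6 of the genes are printed because their RNA or chromatin carries the results that follow. ATP5MC1 had the largest fall in RNA among the genes called, ATP5F1C fell with an NRF1 match just before its start, and the NDUFS7 promoter peak had its lowest signal at 2 µM and its highest at 10 µM. UQCR11 and NDUFV2 were the genes whose RNA rose, and SDHD, whose RNA was not called, has 3 matches. Each line gives the 250 bases before the RefSeq transcription start on GRCh38.p14, 5′ to 3′ on the strand of the gene, with motif matches in capitals. The windows lie at chr17:48892537-48892786 (plus strand) for ATP5MC1, chr10:7787927-7788176 (plus) for ATP5F1C, chr19:1383657-1383906 (plus) for NDUFS7, chr19:1605463-1605712 (minus) for UQCR11, chr18:9102449-9102698 (plus) for NDUFV2 and chr11:112086623-112086872 (plus) for SDHD.
ATP5MC1: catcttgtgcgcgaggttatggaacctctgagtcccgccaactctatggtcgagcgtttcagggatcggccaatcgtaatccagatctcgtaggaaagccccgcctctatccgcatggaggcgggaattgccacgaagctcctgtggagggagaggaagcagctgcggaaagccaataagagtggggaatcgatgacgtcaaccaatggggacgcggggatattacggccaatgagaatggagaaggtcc
ATP5F1C: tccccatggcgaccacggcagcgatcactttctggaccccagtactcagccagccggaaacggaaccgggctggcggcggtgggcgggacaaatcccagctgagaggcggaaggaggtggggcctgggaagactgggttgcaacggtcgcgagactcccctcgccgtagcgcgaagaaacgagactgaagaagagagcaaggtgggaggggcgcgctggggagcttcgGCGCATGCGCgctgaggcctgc
NDUFS7: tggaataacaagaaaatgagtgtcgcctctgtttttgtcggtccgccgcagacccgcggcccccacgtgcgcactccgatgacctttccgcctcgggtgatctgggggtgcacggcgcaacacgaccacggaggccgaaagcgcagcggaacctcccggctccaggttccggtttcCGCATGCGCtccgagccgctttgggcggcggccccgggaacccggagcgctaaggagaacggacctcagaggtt
UQCR11: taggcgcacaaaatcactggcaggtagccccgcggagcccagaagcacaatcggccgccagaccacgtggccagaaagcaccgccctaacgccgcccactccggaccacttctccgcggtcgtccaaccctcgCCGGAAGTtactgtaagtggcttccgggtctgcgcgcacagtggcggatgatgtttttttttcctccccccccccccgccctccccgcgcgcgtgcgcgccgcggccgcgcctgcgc
NDUFV2: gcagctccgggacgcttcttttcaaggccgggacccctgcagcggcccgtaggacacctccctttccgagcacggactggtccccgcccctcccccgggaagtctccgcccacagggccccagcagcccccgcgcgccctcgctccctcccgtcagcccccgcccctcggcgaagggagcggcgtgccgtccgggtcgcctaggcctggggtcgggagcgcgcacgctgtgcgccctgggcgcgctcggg
SDHD: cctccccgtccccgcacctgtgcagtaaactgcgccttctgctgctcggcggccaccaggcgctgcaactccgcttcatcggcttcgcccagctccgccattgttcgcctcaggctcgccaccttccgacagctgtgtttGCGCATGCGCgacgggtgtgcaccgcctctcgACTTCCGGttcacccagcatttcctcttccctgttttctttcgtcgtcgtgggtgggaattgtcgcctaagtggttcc

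The capitals mark NRF1 (GCGCATGCG), ETS/GABP (CCGGAAGT) or YY1 (AAGATGGC) letters found on either strand. An NRF1 match that reads the same on both strands counts as 2 overlapping matches. Thus ATP5F1C had NRF1 matches whose first bases lay 22 and 21 bases before the start, and NDUFS7 had 1 at 74 bases. UQCR11 had an ETS/GABP match at 117 bases, SDHD had NRF1 at 110 and 109 bases and ETS/GABP at 78 bases, and the ATP5MC1 and NDUFV2 windows held none of these letters. Over windows of 300 bases (250 before and 50 after the start), 28 of the 68 genes with a RefSeq promoter entry held at least 1 match, or 41.2%. The share was 8.93% of all 27305 RefSeq promoter windows and 15.8% of the 11878 windows of genes tested in the RNA. NRF1 letters were in 14.7% of the genes' windows against 2.1% of all windows, ETS/GABP in 14.7% against 4.44%, and YY1 in 16.2% against 3.03%. In the windows of tested genes the shares were 3.58% for NRF1, 8.34% for ETS/GABP and 5.1% for YY1. The genes' windows had a median of 22.5 CpG dinucleotides, all windows 14 and windows of tested genes 26. Matches were in 12 of 30 windows (40%) of genes that fell at 10 µM and in 14 of 31 (45.2%) of genes not called. A match describes letters in a window and does not show that a factor binds there.

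RNA libraries held 35553052 to 46430168 counts and ATAC-seq libraries 2896671 to 7864321 counts in peaks. The labelled hepatocyte identity was checked with 10 hepatocyte and HepG2 markers, which were all expressed at 0 µM. Their summed level was 37232 to 62375 CPM (counts scaled to the normalized library size) at 0 µM, 18013 to 30583 CPM at 2 µM and 1389 to 2209 CPM at 10 µM, and all 10 fell at 10 against 0 µM. Of the marker lists of other cells, 3 of 6 leukocyte genes passed the filter and 3 fell (summed 2335 to 3455, 1124 to 1699 and 57.9 to 89.7 CPM at 0, 2 and 10 µM, nearly all LYZ, with PTPRC at 0). For fibroblasts and stellate cells 1 of 2 tested genes fell (5.43 to 24.4, 3.52 to 13.1 and 0.519 to 0.789 CPM), and for endothelium 1 of 2 fell (1.49 to 10.5, 2.91 to 8.74 and 0.407 to 0.95 CPM). For cholangiocytes and other epithelia 2 of 3 fell, EPCAM and SOX9 (218 to 291, 191 to 226 and 96.9 to 104 CPM, with KRT5 and CFTR at 0), and for striated muscle 0 of 2 were called (3.1 to 8.22, 4.69 to 12.6 and 4.02 to 4.4 CPM). The part of these changes in the results below was not tested. In bulk libraries, fewer cells of a type and less RNA per cell cannot be told apart.

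The RNA of many of these genes fell at 10 µM. At 10 against 0 µM, 38 of the 78 genes that passed the filter on low counts fell (48.7%) and 2 rose (2.56%), where 25.1% of all 18999 genes tested fell and 23% rose (edgeR's quasi-likelihood test, Benjamini-Hochberg adjusted p under 0.05). Their median log2 change was -0.52 against -0.02 over all genes tested, and 69 of 78 had a negative value. Among the 9663 genes at a mean of at least 10 CPM, 30.4% fell. The libraries of the 2 doses did not overlap for 36 of the 38 genes that fell, the exceptions being NDUFB10 and NDUFB6. These genes were called from the same libraries, so this count is no separate support, and it was not taken over all genes. At least 2-fold lower levels were reached by 10 of the 38.

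At 2 against 0 µM none of the 78 genes was called, where 3.22% of all genes tested rose and 1.06% fell. Before adjustment 4 had p under 0.05 and a lower level and 1 a higher one, and DESeq2 called 1 lower. The median log2 change was -0.11 with 56 of 78 values negative, where it was -0.01 over all genes tested with 9667 of 18999 negative. With scaling by total counts alone the medians were 0.04 for the 78 genes and 0.15 for all genes. At 10 against 2 µM, 24 of 78 fell (30.8%) and 2 rose, where 21.6% of all genes tested fell and 16.8% rose, and the median was -0.32. The comparisons with 10 µM share its 3 libraries, and both comparisons with 0 µM share that dose's libraries.

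Summed over all 84 genes, the RNA stood at 9906, 9219 and 8299 CPM in the 0 µM libraries, at 8332, 8181 and 7775 CPM at 2 µM and at 6455, 5240 and 6448 CPM at 10 µM. All 10 µM libraries lay below all others. Replicate 2 at 10 µM was the lowest of the 9 libraries for 54 of the 78 genes. Without it 20 genes rather than 38 fell at 10 against 0 µM (25.6%, where 20.7% of all genes tested fell). The median log2 change was then -0.41 against -0.02 over all genes. At 10 against 2 µM 14 rather than 24 fell without it (17.9%, where 16.9% of all genes fell). Without replicate 1 at 0 µM the first count was 24 (30.8%, where 22% of all genes fell). Scaling by total counts alone raised the median of all genes by 0.25 log2 units at 10 against 0 µM (0.16 at 2 against 0 µM), which turned the split over all genes to 30.5% higher and 19.7% lower, and left 3 of the 78 genes higher and 20 lower. The same 20 genes fell under every setting tried: NDUFA2, NDUFB1, NDUFB11, NDUFV1, UQCR10, UQCRC1, UQCRC2, UQCRQ, COX5A, COX7C, NDUFA4, ATP5F1A, ATP5F1B, ATP5F1C, ATP5F1D, ATP5IF1, ATP5MC1, ATP5MC2, ATP5MC3 and ATP5ME.

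**Figure D1:**
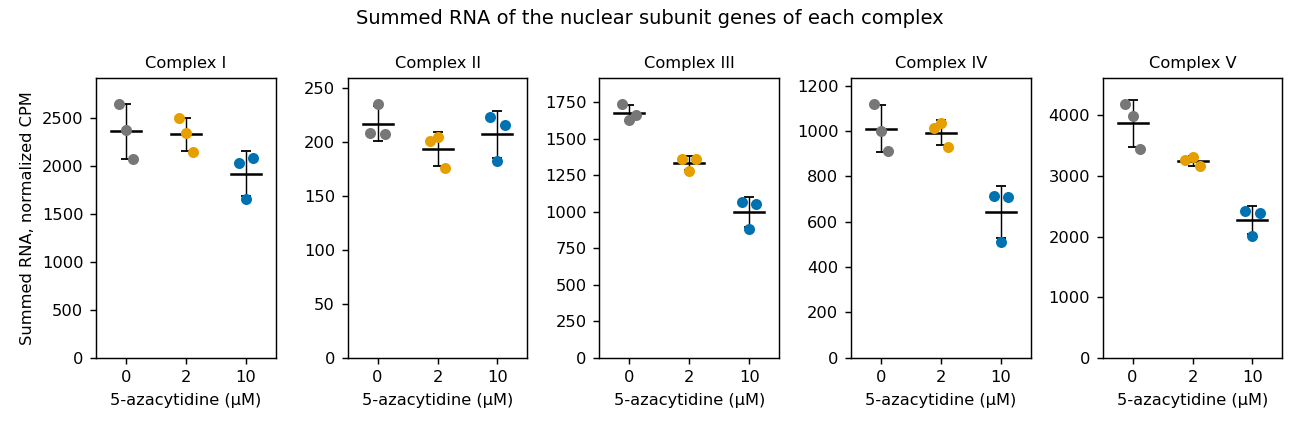
Summed RNA of the nuclear subunit genes of each complex (normalized CPM, linear axis from 0) against the dose of 5-azacytidine, with 1 point per library and the mean and SD of 3 libraries as a bar. The 10 µM points lie below all others for complexes III, IV and V, and overlap with those of 0 µM for complexes I and II.

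The number of genes that fell is given by complex. Complex V had 13 of 19 tested genes lower at 10 against 0 µM and a median log2 change of -0.69, complex III 7 of 10 (median -0.66) and complex IV 7 of 10 (median -0.64). Complex I had 9 of 35 lower and 1 higher (median -0.26), a share near the 25.1% of all genes, and complex II 2 of 4 lower (median -0.24). Under total-count scaling the numbers that fell were 9, 4, 3, 4 and 0 for complexes V, III, IV, I and II, and the medians for complexes I and II were -0.01 and 0.01. Without replicate 2 at 10 µM they were 9, 4, 3, 4 and 0 as well. Without replicate 1 at 0 µM 5 genes of complex I, 4 of complex IV and none of complex II fell, and for complex II none fell without any 1 of the 10 µM libraries and 1 without replicate 2 at 0 µM. The differences between complexes were not tested.

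**Figure D2:**
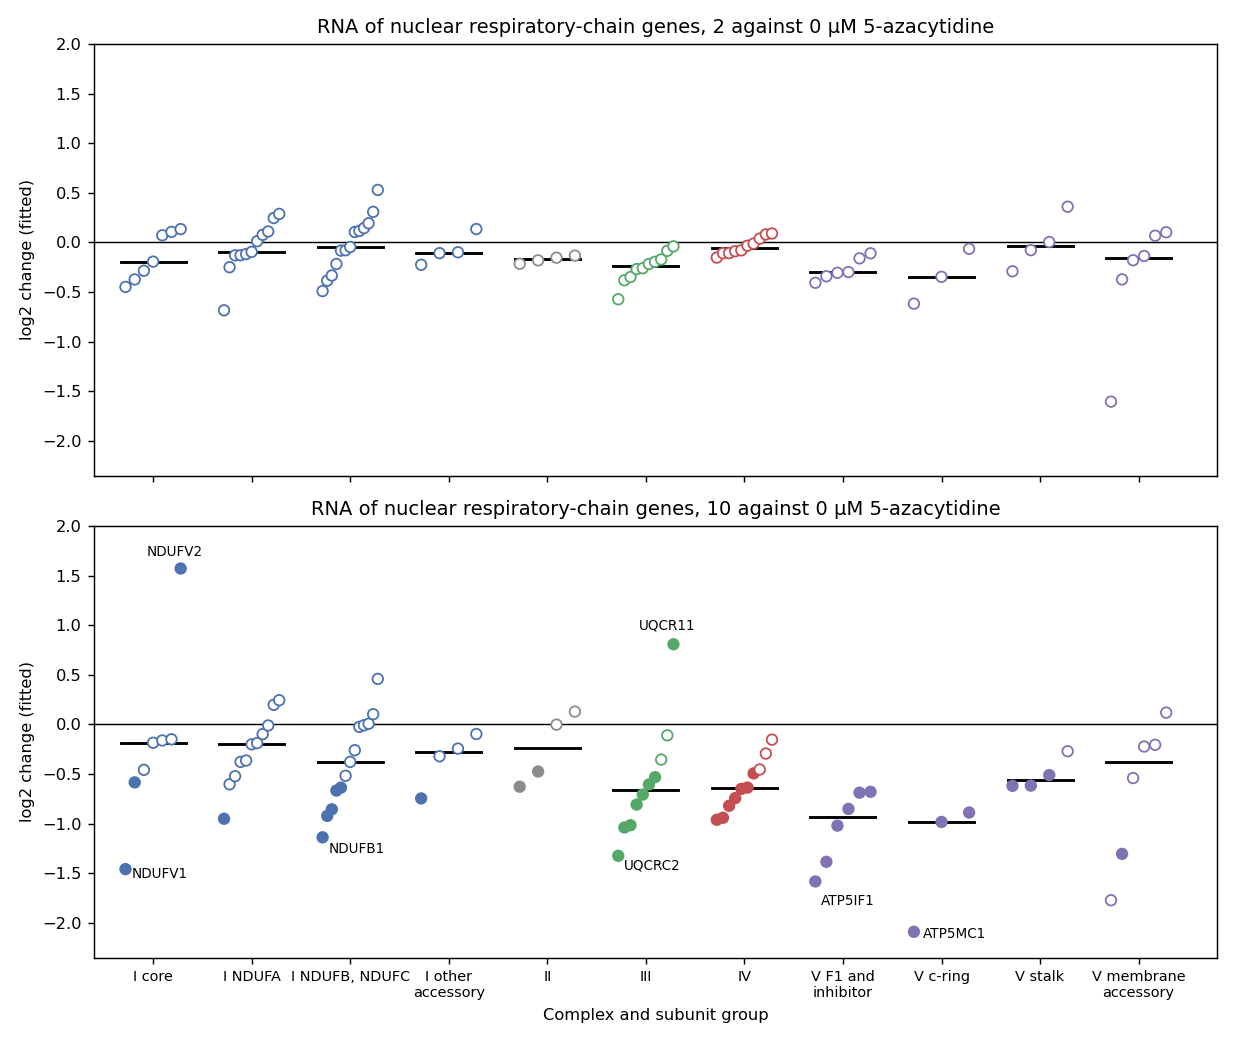
Log2 change in RNA of each tested gene at 2 against 0 µM (top) and 10 against 0 µM (bottom), by complex and subunit group. Filled points passed the adjusted p of 0.05, open points did not, and the bar is the group's median; at 2 µM no point is filled, and at 10 µM all points of the F1 part and of the c-ring are filled and negative.

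Within complex I the 7 nuclear core subunits, which carry the flavin and the iron-sulfur clusters, held both the largest fall and the only rise of the complex. NDUFV1, which binds NADH and the flavin, stood at 207, 137 and 172 CPM at 0 µM, 153, 101 and 145 CPM at 2 µM, and 62.3, 59.7 and 65.9 CPM at 10 µM. The 10 µM libraries lay close together and below all others, a log2 change of -1.46 ± 0.21 (SE) against 0 µM and 2.75-fold lower (adjusted p = 0.00011). Its direct partner in the NADH-binding module, NDUFV2, moved the other way. NDUFV2 measured 3.06, 5.25 and 9.14 CPM at 0 µM, 3.64, 6.19 and 5.46 CPM at 2 µM, and 17.4, 18.5 and 16 CPM at 10 µM. It was 2.97-fold higher at 10 against 0 µM (log2 1.57 ± 0.35, adjusted p = 0.0025) and rose by 1.76 log2 units against 2 µM (adjusted p = 0.0018), with no overlap, in every setting tried.

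NDUFV2 overlaps an antisense gene, NDUFV2-AS1, and the strand setting of the counting is unknown here, so that reads of the pair may not be told apart. NDUFV2-AS1 itself had a log2 change of -0.78 at 10 against 0 µM that was not called (adjusted p = 0.15). ANKRD12, a neighbouring gene of NDUFV2, had a log2 change of 0.73 at 10 against 0 µM (adjusted p = 0.060). It was called higher at 10 against 2 µM (log2 0.92, adjusted p = 0.028). In all, 34 of the 84 genes overlap another RefSeq gene, in some cases a small RNA gene or a read-through entry. How reads in these overlaps were counted is unknown here.

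Of the other core subunits NDUFS7, which holds an iron-sulfur cluster next to the quinone site, fell from 50, 37.3 and 45.2 CPM at 0 µM to 30.6, 25.1 and 32.7 CPM at 10 µM, with 40.5, 23.4 and 33.3 CPM at 2 µM. The libraries of 0 and 10 µM did not overlap, but the call (log2 -0.58, adjusted p = 0.046) was lost in 9 other settings. NDUFS8, another iron-sulfur subunit, was called only at 10 against 2 µM, with 60, 46.5 and 61.5 CPM at 10 µM against 101, 68.9 and 83.6 CPM at 2 µM and 89, 66.9 and 74.8 CPM at 0 µM. NDUFS1, the largest subunit, measured 348, 357 and 363 CPM at 0 µM and 324, 299 and 340 CPM at 10 µM, a log2 change of -0.15 that was not called. As a group the 7 had a median log2 change of -0.18, which was 0.06 under total-count scaling.

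The accessory subunits of complex I surround this core. Of the NDUFA group 1 of 11 fell (median -0.20, and 0.05 under total-count scaling), of the NDUFB and NDUFC group, which sit in the membrane arm, 5 of 13 fell (median -0.38, and 2 to 6 genes when 1 library was left out), and of the other 4 accessory subunits 1 fell (median -0.28). NDUFB1 had the largest fall, from 35.5, 30.7 and 20.3 CPM at 0 µM and 30.7, 43.9 and 32.5 CPM at 2 µM to 14.1, 11.4 and 13.9 CPM at 10 µM (log2 -1.14 ± 0.24, adjusted p = 0.0017). The NDUFA gene that fell was NDUFA2, a subunit of the matrix arm, at 65.3, 53.5 and 39.8 CPM at 0 µM and 30, 20.9 and 31.3 CPM at 10 µM. NDUFB11 followed, at 88.4, 66.2 and 60.3 CPM against 41.3, 27.6 and 44.6 CPM. In all 3 genes the 10 µM libraries lay below every library of both other doses. NDUFB4, by contrast, had a log2 change of -0.01, and NDUFB3 measured 80.6, 65.8 and 86.4 CPM at 10 µM against 62.2, 67.1 and 40.1 CPM at 0 µM without a call (log2 0.46, adjusted p = 0.14).

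Complex II, the only complex with no mitochondrially encoded subunit, had summed RNA that overlapped between all doses, at 208, 235 and 207 CPM at 0 µM, 200.5, 204 and 175.5 CPM at 2 µM and 223, 183 and 216 CPM at 10 µM. SDHA, the flavoprotein that oxidises succinate, was at 12.4, 11.3 and 13 CPM at 0 µM, 10.1, 9.78 and 13.2 CPM at 2 µM and 7.54, 8.46 and 7.82 CPM at 10 µM. Its fall (log2 -0.63, adjusted p = 0.029) was lost in 8 other settings, and that of the membrane anchor SDHC (log2 -0.47, adjusted p = 0.035) in 9. SDHB, the iron-sulfur subunit, read 109, 111 and 84.3 CPM at 0 µM and 111, 84.5 and 109 CPM at 10 µM, values that overlapped throughout (log2 -0.00). SDHD, the other anchor, ran from 47.1 to 74.2 CPM at 0 µM and from 61.6 to 73.4 CPM at 10 µM and was not called either.

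In complex III the core proteins, the cytochrome c1 gene and most small subunits fell. UQCRC2, a core protein, stood at 462, 461 and 470 CPM at 0 µM, 295, 301 and 340 CPM at 2 µM and 194, 194 and 167 CPM at 10 µM. The 3 doses did not overlap and the spread within a dose was small beside the steps between them. The change was -1.32 ± 0.16 log2 units at 10 against 0 µM, 2.50-fold lower (adjusted p = 3.2e-05), and -0.57 at 2 against 0 µM, which did not pass after adjustment (adjusted p = 0.069). UQCR10, a small subunit, fell from 138, 120 and 99.2 CPM to 62.3, 46.3 and 65.1 CPM, with 105, 99.1 and 108 CPM at 2 µM (log2 -1.04). UQCRQ (log2 -1.02), UQCRC1 (-0.81), UQCRHL (-0.71), CYC1 (-0.61) and UQCRH (-0.53) also fell. UQCRH and UQCRHL are near-identical copies, and their reads could be split either way. UQCRFS1, the Rieske iron-sulfur protein that takes electrons from the quinol, had a log2 change of -0.11 and UQCRB one of -0.35, neither called.

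UQCR11, a small complex III subunit, was the other gene that rose. Its libraries read 27.4, 28.5 and 15.3 CPM at 0 µM, 27.9, 17.4 and 17.9 CPM at 2 µM and 45.2, 32.1 and 47.4 CPM at 10 µM. The 10 µM libraries lay above all others, and the change was 0.81 ± 0.28 log2 units (adjusted p = 0.028). The call was lost when replicate 3 at 0 µM (adjusted p = 0.077), replicate 1 at 10 µM (0.085) or replicate 3 at 10 µM (0.10) was left out, or replicates 3 at 0 and 2 µM together (0.060), all by edgeR's quasi-likelihood test.

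**Figure D3:**
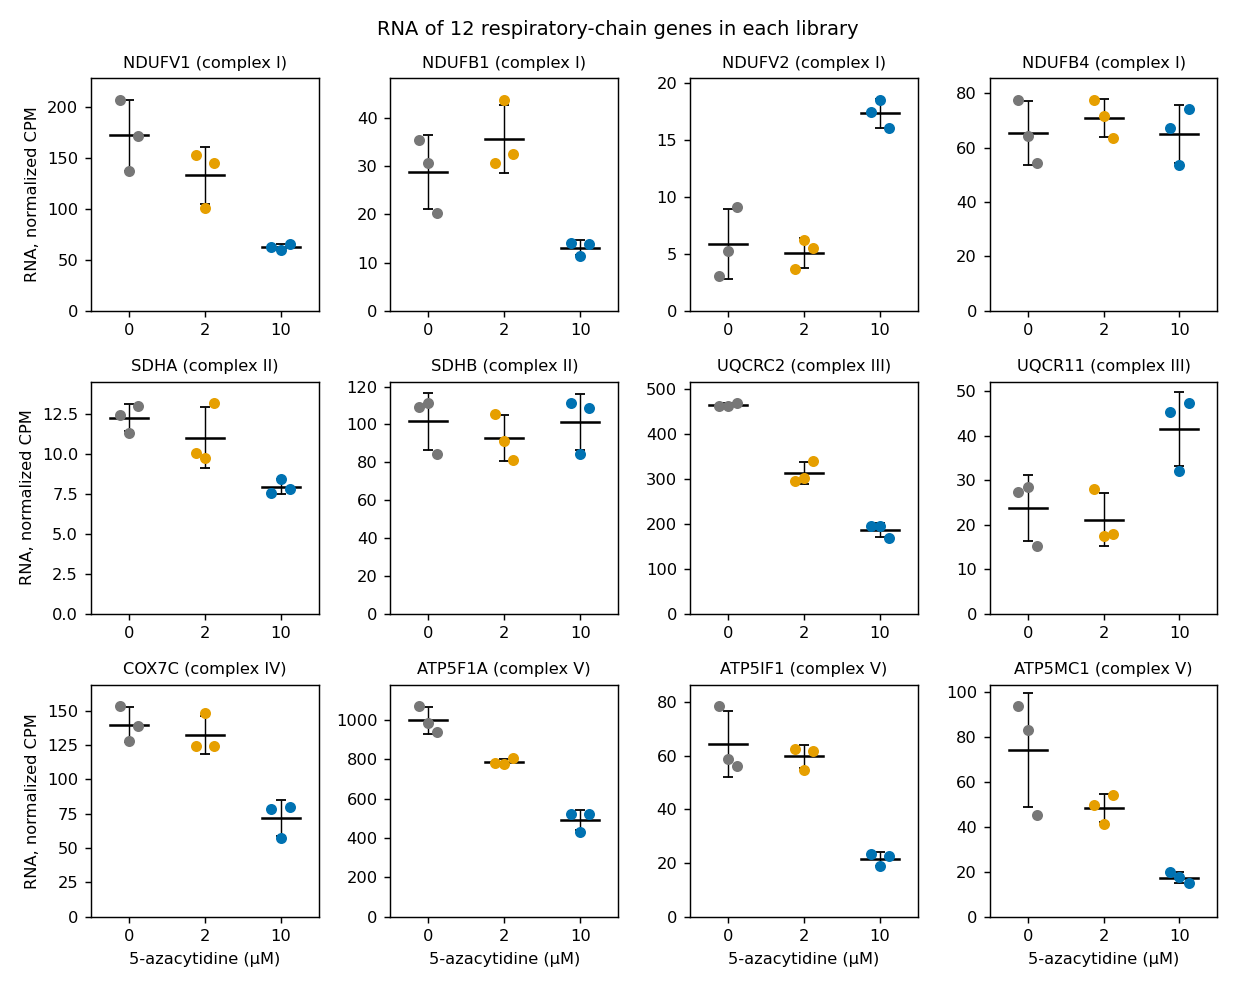
RNA of 12 genes in each library (normalized CPM, linear axes from 0) against the dose of 5-azacytidine, with the mean and SD of 3 libraries. NDUFV2 and UQCR11 have their 10 µM points above all others, NDUFB4 and SDHB overlap between doses, and in the other panels the 10 µM points lie lowest.

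All 10 tested subunits of complex IV had a negative log2 change at 10 against 0 µM, and 7 fell. COX7C, a small membrane subunit, stood at 154, 128 and 139 CPM at 0 µM, 124, 148 and 124 CPM at 2 µM and 78.7, 57 and 79.8 CPM at 10 µM (log2 -0.96 ± 0.19, adjusted p = 0.00097). NDUFA4 read 169, 172 and 124 CPM, then 143, 185 and 134 CPM, then 88.7, 64.4 and 89.4 CPM (log2 -0.94). In both genes the 0 and 2 µM libraries overlapped and the 10 µM libraries lay below them. COX5A fell with a log2 change of -0.82, COX8A of -0.74, COX7B of -0.65, COX5B of -0.64 and COX6B1 of -0.49, the last of which was lost in 11 other settings. COX6C (-0.45), COX7A2 (-0.29) and COX6A1 (-0.15) were not called.

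The tissue-restricted forms of these subunits were at or near 0 counts at all doses. The muscle form COX6A2 and the form COX8C had no count in any of the 9 libraries, which allows up to 0.00791 CPM over all of them (3 counts, counting error only). COX7A1, the other muscle form, had 4 counts, all at 2 µM. COX6B2 had 8 counts in all and COX7B2 had 23, and neither passed the filter. NDUFA7 of complex I, not one of the tissue-restricted forms, was the remaining gene that did not pass. It had 8, 23 and 14 counts summed over the libraries of 0, 2 and 10 µM. Whether its reads were assigned to another gene ID is unknown here, so the low counts do not show that it is silent. Outside the symbol rule, the common COX4I1 had a log2 change of -0.31 (adjusted p = 0.15). NDUFA4L2, a relative of NDUFA4, read 3.06, 1.8 and 9.29 CPM at 0 µM, 3.74, 2.67 and 11.4 CPM at 2 µM and 0.646, 0.0769 and 0.566 CPM at 10 µM, a fall of 3.47 log2 units (adjusted p = 0.0029). Replicate 3 stood high at 0 and 2 µM, and without these 2 libraries the fall was 2.53 (adjusted p = 0.0016). COX4I2 had 7, 9 and 0 counts at 0, 2 and 10 µM and did not pass the filter. NDUFA4L2 was the only 1 of the 5 tested genes outside the rule that was called.

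Complex V had the most genes that fell and the largest changes. In the F1 head, where ATP is made, ATP5F1A, the alpha subunit, stood at 1073, 986 and 938 CPM at 0 µM, 780, 779 and 807 CPM at 2 µM and 523, 433 and 522 CPM at 10 µM. The doses did not overlap, and 10 µM was 2.03-fold below 0 µM (log2 -1.02 ± 0.17, adjusted p = 0.00026). ATP5F1D fell with a log2 change of -1.38, ATP5F1C of -0.85, ATP5F1E of -0.69 and ATP5F1B, the catalytic beta subunit, of -0.68. ATP5IF1, which binds the F1 head and inhibits ATP hydrolysis, read 78.6, 58.7 and 56 CPM at 0 µM, 62.6, 54.8 and 61.8 CPM at 2 µM and 23.3, 18.7 and 22.6 CPM at 10 µM. The 0 and 2 µM libraries overlapped and the 10 µM libraries lay below them. The change was -1.47 log2 units against 2 µM and -1.58 ± 0.19 against 0 µM, 2.99-fold lower (adjusted p = 2.8e-05). All 6 genes of the head and its inhibitor fell (median -0.94).

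The 3 c-ring genes ATP5MC1, ATP5MC2 and ATP5MC3 encode the same mature protein, the subunit that carries protons through the rotor, with different import sequences. ATP5MC1 stood at 94, 83.2 and 45.5 CPM at 0 µM, 49.7, 41.5 and 54 CPM at 2 µM and 19.8, 17.7 and 14.8 CPM at 10 µM. The 10 µM libraries lay far below the others while the 0 and 2 µM libraries overlapped, and the change of -2.09 ± 0.26 log2 units, or 4.26-fold lower, was the largest of any of these genes called (adjusted p = 3.2e-05). ATP5MC3 fell from 316, 311 and 250 CPM through 239, 218 and 233 CPM to 146, 126 and 172 CPM (log2 -0.98), and ATP5MC2 from 116, 96.1 and 102 CPM through 110, 90 and 99.7 CPM to 58.5, 51.9 and 59.2 CPM (log2 -0.89). All 3 also fell against 2 µM, and their falls against 0 µM were called under every setting tried.

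Around the rotor, 3 of the 4 peripheral stalk genes fell at 10 against 0 µM (median -0.56), none of them under total-count scaling or without replicate 1 at 0 µM or replicate 2 or 3 at 10 µM, and 1 without replicate 1 at 10 µM. They were ATP5PF (log2 -0.62), ATP5PO (-0.62) and ATP5PD (-0.51), and ATP5PB had -0.27. Of the 6 accessory membrane genes only ATP5ME, which helps hold synthase dimers together, fell, from 95.1, 72.4 and 52.2 CPM at 0 µM to 31.6, 24.7 and 32.6 CPM at 10 µM (log2 -1.30, adjusted p = 0.00038). ATP5MGL, a copy of ATP5MG, had a log2 change of -1.77 at levels under 1 CPM and was not called (adjusted p = 0.11).

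The promoter peaks of these genes that were called at 10 µM were all higher, at a share near that of all promoter peaks. The authors' deposited annotation placed 65 peaks, each 501 bp wide, in promoters of 50 of the 84 genes, 12 of them with more than 1 peak. At 10 against 0 µM, 16 of the 65 rose (24.6%) and none fell, where 20.5% of all 19763 promoter peaks rose and 14.9% fell, and the median log2 change was 0.25 against 0.09 over all promoter peaks (edgeR's quasi-likelihood test). Before adjustment, too, none of the 65 was lower with p under 0.05, and DESeq2 called 6 higher and none lower. Without replicate 3 at 0 µM 8 rose, and without replicate 1 at 10 µM 9 rose. At 10 against 2 µM, 18 rose and none fell (27.7%), where 24.5% of all promoter peaks rose and 13.7% fell. That count was 9 without replicate 1 at either dose, and with upper-quartile factors 7 rose and 1 fell. At 2 against 0 µM 1 rose, at NDUFV2, and 1 fell, at NDUFS7, where 7.04% of all promoter peaks rose and 5.01% fell.

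By complex, 11 of 29 promoter peaks rose at 10 against 0 µM for complex I (37.9%), 1 of 2 for complex II and none of 7 for complex III. The counts were 2 of 9 for complex IV and 2 of 18 for complex V, where 20.5% of all promoter peaks rose. Their total of 16 was 8 without replicate 3 at 0 µM and 6 with DESeq2. Some genes had more than 1 peak, and differences between complexes were not tested. When peaks were instead taken by overlap with the window around the RefSeq start, 54 of 68 genes had one, 12 of 57 peaks rose and 1 fell. The 1 that fell overlapped the start of ATP5F1A and was annotated to the neighbouring HAUS1, with 22.3, 28.4 and 29.9 CPM at 0 µM and 17.6 and 18.9 CPM at 10 µM (log2 -0.58, adjusted p = 0.0046).

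NDUFV2 had the largest change of any promoter peak of these genes. A peak at chr18:9117187-9117687 (hg38), annotated to a transcript whose start lies 14688 bases downstream of the RefSeq start of NDUFV2, measured 4.37, 1.77 and 3.79 normalized CPM at 0 µM, 13.1, 8.25 and 5.46 CPM at 2 µM and 11.5 and 15.9 CPM at 10 µM. The libraries at 0 µM lay below all treated libraries, and the signal was 2.63-fold higher at 2 against 0 µM (adjusted p = 0.0022) and 4.32-fold higher at 10 against 0 µM (log2 2.11 ± 0.32, adjusted p = 6.3e-07). The peak near the first start, chr18:9101658-9102158, read 3.15, 3.81 and 5.87 CPM, then 6.53, 6.19 and 6.82 CPM, then 7.51 and 8.26 CPM (log2 0.86, adjusted p = 0.0076). NDUFV2 was thus the gene with both RNA and promoter peak higher at 10 against 0 µM. UQCR11, the other gene whose RNA rose, had a promoter peak at 38.8, 36.8 and 35.2 CPM at 0 µM and 38.4 and 36.1 CPM at 10 µM (log2 0.02).

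The NDUFS7 promoter peak, chr19:1383627-1384127, lies over the sequence printed above. It measured 16, 12.6 and 13.6 CPM at 0 µM, 6.19, 8.25 and 11.2 CPM at 2 µM and 22 and 20.4 CPM at 10 µM. The 2 µM libraries were lowest and the 10 µM libraries highest, without overlap: log2 -0.61 at 2 against 0 µM (adjusted p = 0.028), 0.61 at 10 against 0 µM (adjusted p = 0.0062) and 1.22 at 10 against 2 µM (adjusted p = 8.5e-06). The last call held in every setting tried. The call at 2 against 0 µM was lost in 5 other settings (adjusted p up to 0.13), which were upper-quartile factors, DESeq2 and leaving out replicate 1 at 0 µM or replicate 1 or 2 at 2 µM. That at 10 against 0 µM was lost in 3 (adjusted p up to 0.063), which were DESeq2 and leaving out replicate 2 at 0 µM or replicate 1 at 10 µM. The NDUFB4 promoter peak read 18.9, 23.5 and 20.8 CPM at 0 µM, 12.4, 22.3 and 20.5 CPM at 2 µM and 41.5 and 26.1 CPM at 10 µM (log2 0.69), and the call was lost without replicate 1 at 10 µM (adjusted p = 0.30).

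**Figure D4:**
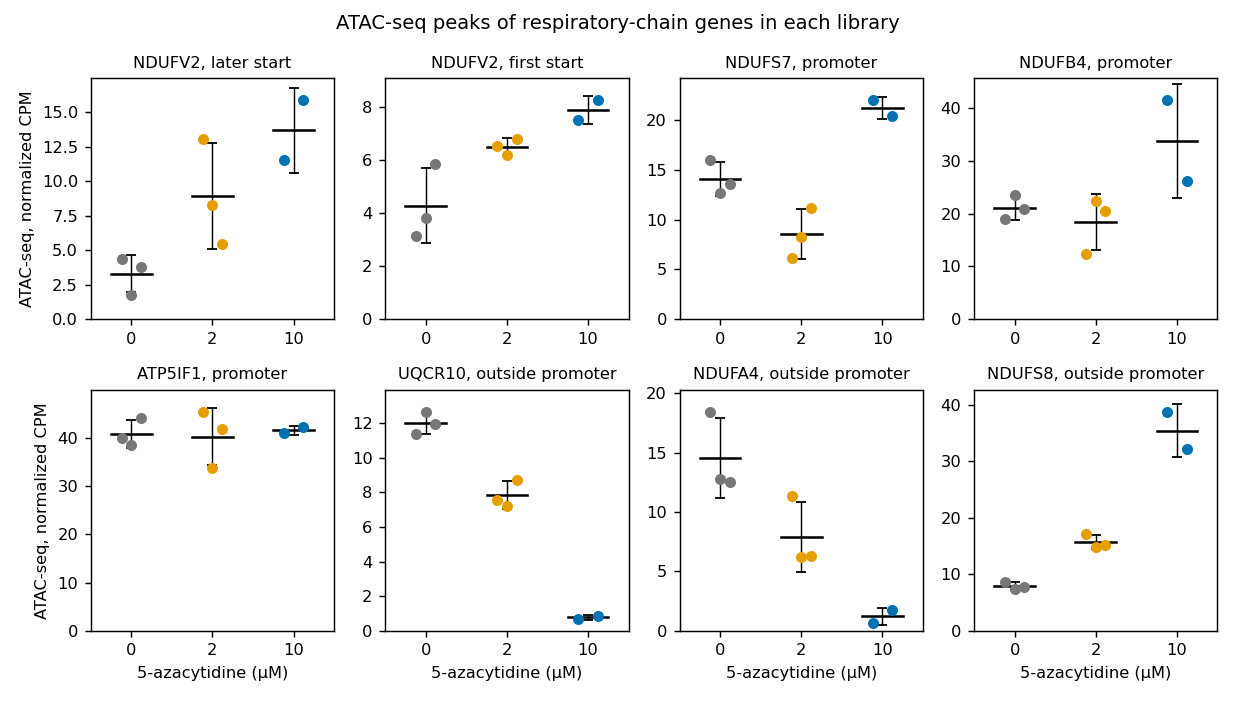
ATAC-seq signal of 8 peaks in each library (normalized CPM, linear axes from 0) against the dose of 5-azacytidine, with the mean and SD of 3 libraries (2 at 10 µM). Both NDUFV2 peaks and the NDUFS8 peak outside promoters have their highest mean at 10 µM, the ATP5IF1 promoter peak overlaps between doses, and the UQCR10 and NDUFA4 peaks outside promoters are near 0 at 10 µM.

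As none of the 65 annotated promoter peaks was called lower at 10 against 0 µM, none could be for the genes whose RNA fell. Of the 38 genes that fell at 10 against 0 µM 26 had an annotated promoter peak, and in 4 of them a peak rose (ATP5F1E, ATP5MC2, COX8A and NDUFS7) and in none did a peak fall. Of the 38 genes not called 21 had one, and in 10 a peak rose. For the 49 tested genes with an annotated peak, taking the peak with most counts, the RNA was lower and the peak higher in value for 35, both were lower for 7 and both higher for 7. Most such pairs would be mixed without any link, since 69 of 78 tested genes had lower RNA and 54 of the 65 peaks were higher. Among all 19763 promoter peaks 11879 were higher in value. A link between RNA and peak was not tested. ATP5MC1, with the largest fall in RNA, had its peak over the start at 31, 45 and 37.9 CPM at 0 µM and 47.6 and 44.4 CPM at 10 µM (log2 0.26, adjusted p = 0.15). ATP5IF1 had 40, 38.5 and 44.1 CPM at 0 µM and 40.9 and 42.2 CPM at 10 µM (log2 0.02).

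**Figure D5:**
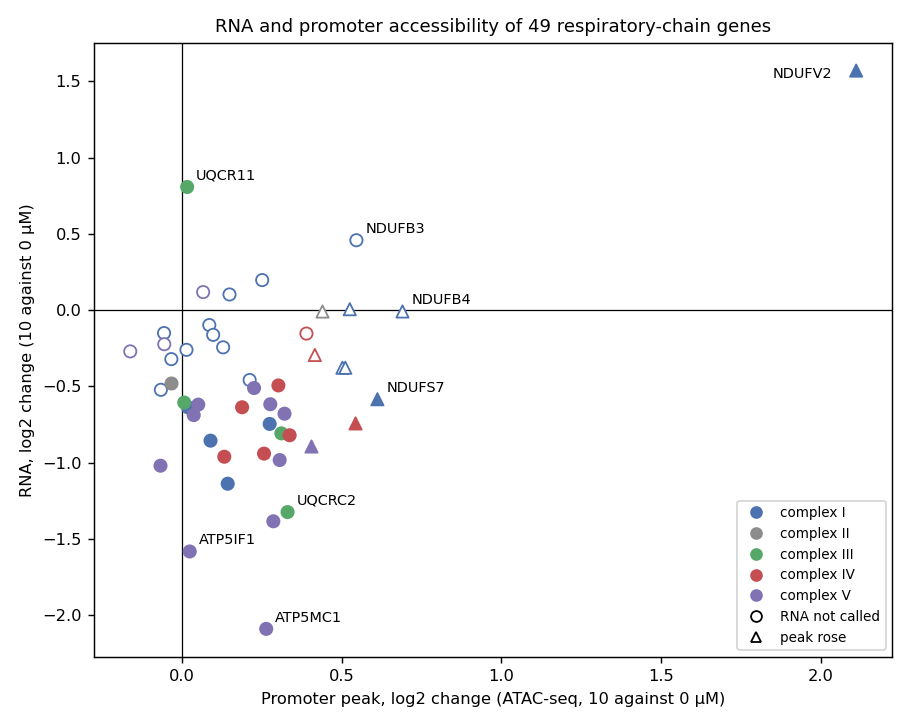
Log2 change in RNA (vertical) against that of the promoter peak with most counts (horizontal) for 49 genes, both at 10 against 0 µM, coloured by complex. Filled points are genes whose RNA was called and triangles are peaks that rose; NDUFV2 stands alone at the top right, and 35 points lie at the lower right.

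Peaks outside promoters that the authors' table assigns to these genes as the nearest gene changed in both directions. There were 65 of them, for 39 genes, and other genes lie near many of them. At 10 against 0 µM 21 rose (32.3%) and 16 fell (24.6%), where 34.6% of all 38609 peaks outside promoters rose and 34.1% fell. At 2 against 0 µM 6 rose and 4 fell, where 19.8% and 8.47% of all such peaks did, and at 10 against 2 µM 15 rose and 16 fell, where 29.1% and 34.7% of all such peaks did. The last count was 9 without replicate 1 at 10 µM.

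The strongest loss was at chr22:29769724-29770224, 2350 bases downstream of the annotated start of UQCR10 and inside the gene, where the authors' table gives 3′ UTR. It read 11.4, 12.6 and 11.9 CPM at 0 µM, 7.56, 7.22 and 8.73 CPM at 2 µM and 0.671 and 0.87 CPM at 10 µM, a 15.6-fold drop from 0 to 10 µM (log2 -3.97 ± 0.35, adjusted p = 2.2e-11). A peak 10287 bases upstream of NDUFA4, chr7:10950440-10950940, read 18.4, 12.8 and 12.5 CPM, then 11.3, 6.19 and 6.27 CPM, then 0.671 and 1.74 CPM, 12.9-fold lower (adjusted p = 3.2e-10), with log2 -3.69 and, without replicate 1 or replicate 2 at 10 µM, -3.03 or -4.44. In both, the 10 µM libraries lay below all others. Upstream of UQCRC2, by 16003 bases, a peak fell by 1.39 log2 units (adjusted p = 3.6e-06), and a peak assigned to ATP5MC2, 9815 bases from the annotated start and outside the RefSeq gene, fell by 1.83 (adjusted p = 1.4e-10).

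The clearest gain was 2110 bases upstream of the annotated start of NDUFS8, at chr11:68028007-68028507, with 8.73, 7.34 and 7.76 CPM at 0 µM, 17.2, 14.8 and 15.3 CPM at 2 µM and 38.8 and 32.2 CPM at 10 µM. Each dose stood above the one before without overlap, 4.54-fold higher at 10 than at 0 µM (log2 2.18 ± 0.18, adjusted p = 2.8e-12). Other gains lay 30922 bases upstream of NDUFB6 (log2 2.82) and 141044 bases upstream of NDUFV2 (log2 3.08), both called under every setting tried.

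Genes that work with the subunits were read from lists chosen with earlier results of these data known. Of 59 assembly factors, which build the complexes, 19 fell (32.2%) and 9 rose (15.3%) at 10 against 0 µM, where 25.1% and 23% of all genes did (median -0.15). Under total-count scaling 11 fell and 14 rose (median 0.09). Without replicate 1 at 10 µM 13 fell and 3 rose, without replicate 2 12 fell and 6 rose, without replicate 3 13 fell and 4 rose, and without replicate 2 at 0 µM 15 fell and 5 rose. NDUFAF3 and FOXRED1, for complex I, fell by 1.54 and 1.46 log2 units, and SDHAF4, for complex II, by 1.55. COA3 and COX20, for complex IV, fell by 1.32 and 1.30, while COX15, which makes heme A for complex IV, rose by 0.79 log2 units. ATPAF1 and ATPAF2, both for the F1 head, differed, with a fall of 0.85 and a rise of 0.84. None of the 59 was called at 2 against 0 µM.

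The TCA cycle supplies electrons to these complexes, and of 14 genes listed for it 6 fell (42.9%) and 2 rose (14.3%) at 10 against 0 µM. Of all genes tested 25.1% fell and 23% rose. Under total-count scaling or without replicate 2 at 10 µM 3 TCA cycle genes fell. Without replicate 2 or 3 at 0 µM, or 1 or 3 at 10 µM, 1 rose. IDH2, the mitochondrial NADP-dependent isocitrate dehydrogenase, read 234, 168 and 239 CPM at 0 µM, 161, 111 and 171 CPM at 2 µM and 24.4, 24.8 and 30.1 CPM at 10 µM, a fall of 3.02 log2 units (adjusted p = 7.7e-07). The 10 µM libraries lay far below all others. MDH2, malate dehydrogenase, fell by 0.97 and CS, citrate synthase, by 0.81, while DLST rose by 0.64. IDH3A and IDH3G were not called (log2 0.21 and 0.14), and IDH3B rose by 0.54, a call lost in 7 other settings. Of 12 coenzyme Q synthesis genes 3 fell (25%, near the share of all genes), COQ2, COQ5 and COQ10A, and 0 rose. Under total-count scaling 1 fell and 3 rose.

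Of 15 transcriptional regulators of mitochondrial genes 5 rose and 3 fell at 10 against 0 µM, where 23% and 25.1% of all genes did. Without replicate 1 at 0 µM or replicate 2 at 10 µM 1 rose, PPRC1, without replicate 1 or 3 at 10 µM 2 rose, and without replicate 2 or 3 at 0 µM 3 rose. PPARGC1A, the coactivator PGC-1alpha, read 19.2, 21.8 and 93.6 CPM at 0 µM, 13.7, 15.8 and 43 CPM at 2 µM and 3.11, 2.04 and 3.34 CPM at 10 µM, a fall of 3.99 log2 units (adjusted p = 0.00022). Replicate 3 stood high at both 0 and 2 µM, and without these 2 libraries the fall was 2.88 (adjusted p = 2.5e-07). Its relative PPRC1 rose from 45.1, 51.6 and 32.1 CPM at 0 µM to 91, 130 and 91.7 CPM at 10 µM (log2 1.28, adjusted p = 0.00043). TFB1M, a methyltransferase of mitochondrial ribosomal RNA, fell by 2.11 and the nuclear receptor PPARA by 2.31. Of the factors whose motifs were searched, NRF1 (log2 -0.08) and YY1 (-0.01) were not called. GABPA, the DNA-binding subunit of GABP, rose by 0.63 (adjusted p = 0.018), a call lost in 3 other settings. GABPB2, a partner subunit, read 0.156, 0.103 and 0.256 CPM at 0 µM, 1.1, 1.87 and 1.81 CPM at 2 µM and 0.215, 0.711 and 0.95 CPM at 10 µM. It rose at 2 against 0 µM without overlap (log2 3.19, adjusted p = 0.011). The libraries of 0 and 10 µM overlapped, and its rise at 10 against 0 µM (log2 1.85, adjusted p = 0.021) was lost in 4 other settings.

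The mitochondrially encoded partners had their highest levels in 2 libraries, replicates 3 at 0 and at 2 µM. Of 13 such genes 12 were tested and none was called at 10 against 0 µM by edgeR's quasi-likelihood test, with 1 of them under 0.05 before adjustment and 1 called by DESeq2. Their share of all counts was 0.0664%, 0.106% and 0.271% without the drug, 0.0866%, 0.0883% and 0.231% in the 2 µM libraries, and 0.11%, 0.143% and 0.118% in those given 10 µM. The median log2 change at 10 against 0 µM was -0.81, and 0.18 without these 2 libraries, while without them 44 of the nuclear genes fell and 1 rose.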

How the data were processed

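Gene counts (whole reads per gene) for 9 RNA-seq libraries and counts in 58372 ATAC-seq peaks for 8 libraries were used as the authors deposited them. The build hg38 and the tools DiffBind 3.12.0, HTSeq 2.0.4, HISAT2 2.2.1 and DESeq2 1.42.1 stand in the submitters' processing notes. Promoter and nearest-gene labels of peaks are the authors' deposited annotation. The authors' deposited size-factor-normalized signal (21986 genes) was only checked against the counts: its 10 µM replicates 2 and 3 hold each other's counts, and replicate numbers here follow the count table.

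Counts were fitted in R 4.3.3 with edgeR 4.0.16 (TMM scaling, filterByExpr, quasi-likelihood test, all doses in 1 fit, Benjamini-Hochberg adjustment over all genes or peaks), and a call needed an adjusted p under 0.05. CPM values are TMM-normalized. The scripts were tested on simulated data. Gene IDs were matched to symbols (62666 of 63187), and all 84 genes matched RefSeq (GRCh38.p14). The genes and lists were chosen with earlier results of these data known. Values in every library were planned for up to 12 genes per comparison and direction by smallest adjusted p, the extremes of each complex, tissue-restricted forms, up to 5 promoter peaks per comparison and direction, and up to 3 genes per related list, and a part of these is printed.

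Alternatives were total-count and upper-quartile scaling, DESeq2 1.42.0, other filters, only the doses compared, the replicate number as a block, peaks over the RefSeq start, each library left out, and replicates 3 at 0 and 2 µM left out together. Same-numbered RNA libraries at 0 and 2 µM deviated together (r = 0.325, 0.388 and 0.359), whereas those at 10 µM and the ATAC-seq libraries did not. The numbers therefore pair 0 with 2 µM, from the data and not from the labels.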

Additional observations from a re-analysis of the deposited data

How the results depend on the processing

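The results for single genes and peaks were 187, each a call at 1 comparison, so that a gene called at 2 comparisons counts as 2 results. Of their 2958 recomputed values 2497 kept direction and call, 461 kept only the direction and 0 reversed, and 94 results were called in every setting. The results for related genes and for peaks outside promoters were recomputed after seeing the data. The counts named next moved by over 1.5 times. Of the genes in the RNA there fell at 2 against 0 µM 1 with DESeq2 and 2 without both replicates 3, and at 10 against 0 µM 20 with total counts, while 1 rose without both replicates 3. With smaller shifts, 30 fell at 10 against 0 µM with upper-quartile factors, 31 with no count filter, 37 with DESeq2 and 30 with the replicate block over the doses compared. Of the promoter peaks at 2 against 0 µM, 0 rose over the RefSeq start, and 0 fell with upper-quartile factors, 0 with DESeq2, 5 with only the doses compared and 3 over the RefSeq start. At 10 against 0 µM 6 rose with DESeq2 and 1 fell over the RefSeq start. At 10 against 2 µM 10 rose with total counts, 7 with upper-quartile factors, 10 with DESeq2 and 10 with the replicate block, and 1 fell with upper-quartile factors. Of peaks outside promoters 1 fell at 2 against 0 µM with upper-quartile factors, 1 with DESeq2 and 2 with the replicate block. The cause of these differences was not tested.

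Leaving out 1 library at a time, 20 to 43 genes fell at 10 against 0 µM, 14 to 28 at 10 against 2 µM and 0 to 2 at 2 against 0 µM, and 1 to 2, 1 to 2 and 0 to 0 rose. Of the promoter peaks 8 to 16, 9 to 23 and 1 to 1 rose in these comparisons, and 0 to 1, 0 to 1 and 0 to 6 fell. Outside promoters 18 to 21, 12 to 16 and 5 to 6 rose, and 14 to 17, 9 to 16 and 0 to 5 fell. With a replicate block fitted over every dose 39 genes fell at 10 against 0 µM, 25 at 10 against 2 µM and 0 at 2 against 0 µM, and 13 promoter peaks rose at 10 against 0 µM. For 0 and 2 µM, which the numbers pair, none of the 78 genes was called with the block either. Over all genes tested 2.24% rose and 1.77% fell with the block over these 2 doses. From the same doses without the block 1.98% rose and 0.32% fell. The 2 ATAC-seq libraries at 10 µM limit what could be detected there.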
